A study of Rattus norvegicus with 71 samples.

Results

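Thoracic aortas of hybrid and inbred rats were compared at the youngest age of the study, 6 months. The comparison was defined by the labels alone, as the arrays labelled F344xBN or BN, thoracic artery and 6 months, and it held 12 of 71 arrays. The FBN group (6 arrays) came from rats of the cross Fischer344 x Brown Norway, and the BN group (6 arrays) from inbred Brown Norway rats. The series measured total RNA of thoracic and mesenteric arteries of these strains at 6, 15 and 24 months on Affymetrix rat arrays. The labels name no drug and no engineered allele for either group. They cite, for every array alike, a model in which an artery next to an occluded one enlarges as a collateral, without saying which vessels came from it. They give neither sex nor animal numbers, and nothing says that the arrays of a group came from separate rats, so the p-values measure the spread between arrays. The hybrid shares the Brown Norway genome in part, so the contrast is between a cross and one of its parents and not between 2 unrelated strains.

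The wall of the aorta is built of an endothelial lining, layers of smooth muscle cells with elastic and collagen fibres between them, and an outer adventitia of fibroblasts, nerves and small vessels. Around the thoracic aorta of rodents lies perivascular fat that resembles brown fat, which burns fatty acids in mitochondria with the uncoupling protein Ucp1 and also makes much fat of its own from glucose. F344xBN hybrids are a standard model of ageing, used because they live long and lack some of the diseases of inbred rats.

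The pieces of tissue differed in size and in what they held, and this has to be known before any gene is read. Tissue mass, as labelled, was 8.5 to 28.9 mg in FBN and 21.4 to 29.6 mg in BN, with means of 18.6 ± 8.92 and 25.9 ± 3.51 mg (SD, n = 6 each), and the difference of -7.25 mg had a two-sided p of 0.0952 in an exact permutation test whose smallest possible p was 0.00216. The groups overlapped in mass. In order of their accessions, the FBN arrays are numbered 1 to 6, with masses of 28.9, 27.7, 21, 16.9, 8.5 and 8.7 mg. FBN arrays 1 and 2 resembled the BN arrays across probe sets, with mean correlations of 0.943 and 0.938 with them, while arrays 3, 5 and 6 stood apart at 0.811 to 0.830, and array 4 lay nearer to BN at 0.929. The typical SD of a probe set was 0.43 log2 units within FBN and 0.23 within BN.

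Markers of brown fat moved with this split. Ucp1 had signals of 40684 to 131050.0 (median 55156) in FBN and 74628 to 92267 (median 85613) in BN, so brown fat RNA was plentiful in every array, and with these the log2 difference of -0.38 ± 0.29 did not pass (adjusted p = 0.326). The brown adipocyte score, the mean log2 signal of the 12 listed genes that were tested, was 12.25, 12.8, 11.1, 12.04, 10.8 and 11.1 in FBN arrays 1 to 6 and 12.29 to 12.525 in BN. Arrays 3, 5 and 6 were thus lower than all BN arrays by at least 1 log2 unit. Arrays 1 and 4 were also lower than all BN arrays, by less, and array 2 was higher than all of them. The contractile smooth muscle score ran the other way, from 12.2 to 14.4 in FBN and from 12.4 to 13.5 in BN, with arrays 1 and 2 the lowest of the 12. Acta2, smooth muscle actin, had signals of 9374 to 49936 (median 41926) in FBN and 11173 to 23496 (median 18921) in BN and a difference of 0.67 ± 0.39 (adjusted p = 0.204). In whole tissue, fewer cells of a type and less RNA per cell cannot be told apart.

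FBN array 1 also held RNA of skeletal muscle. Its skeletal muscle score was 13.8, against 9.07 to 10.3 in the other FBN arrays and 9.396 to 10.1 in BN. Among 5 measures of array quality, only the poly-A spike-in signal, from RNA added to each sample, passed its test between the groups. It was higher in FBN by 0.62 log2 units (adjusted p = 0.0325, exact permutation tests over 5 measures), and it was lowest in FBN array 4 (9.76) and highest in arrays 3 and 5 (10.6 and 10.5), against 9.30 to 9.97 in BN. Without FBN array 3 or 5 or BN array 1, 3, 4, 5 or 6, none of the 5 measures passed, and without FBN array 4, 2 did. Mass, fat content and spike-in level entered the fits as covariates, and mass also through subsets of arrays. Of 101 named calls, 46 were lost with tissue mass as a covariate and 53 with the brown adipocyte score. Of all 2783 probe sets called, 38.4% passed in the same direction with tissue mass and 32.1% with the brown adipocyte score.

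**Figure D1:**
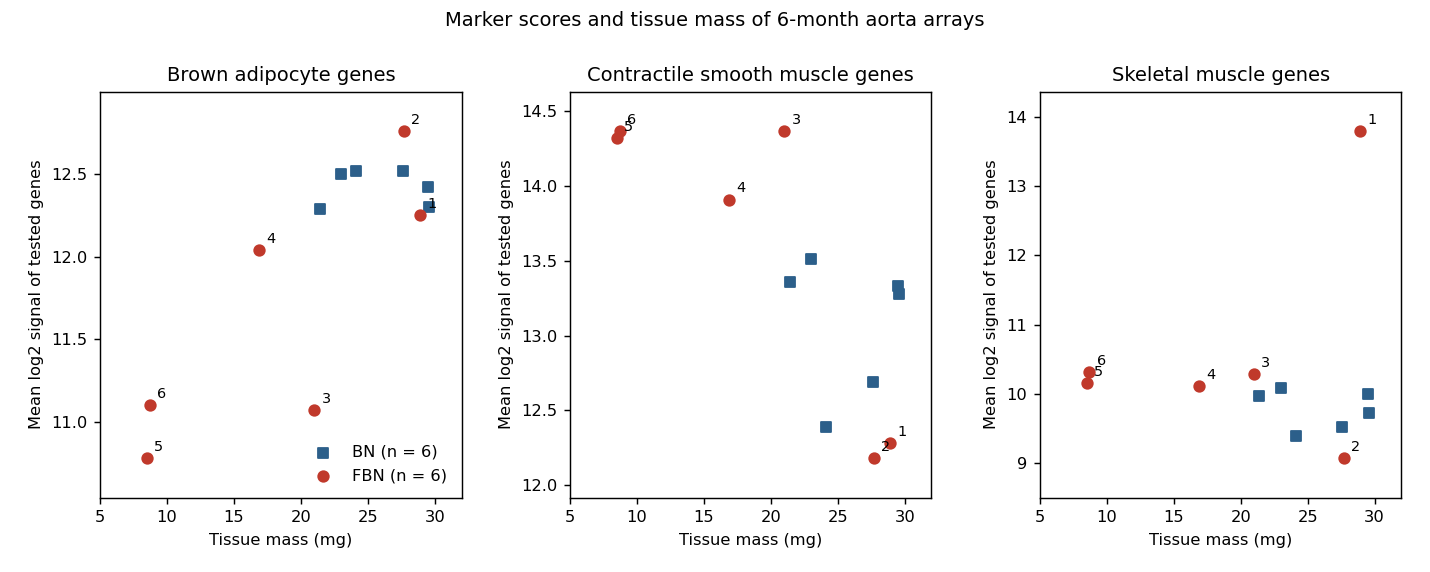
Mean log2 signal of the tested marker genes of 3 cell types (vertical axes) against tissue mass in mg (horizontal axes) in the 12 aorta arrays of 6 months; each point is an array, circles are FBN (numbered) and squares BN. FBN arrays 3, 5 and 6 have brown adipocyte scores of 10.8 to 11.1, below all BN arrays, and FBN array 1 alone has a skeletal muscle score of 13.8.

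Across the array, FBN and BN aorta differed widely at 6 months. Of 16717 probe sets tested, 1290 were higher in FBN (7.72%) and 1493 were lower (8.93%), together 2783 (16.6%), by limma's two-sided moderated test at a Benjamini-Hochberg adjusted p of 0.05 with the spread estimated over all 35 aorta arrays. Here "higher", "rose", "lower" and "fell" mean that a probe set passed this test, and a log2 difference is FBN minus BN with its standard error. Genes were each represented in lists by the brightest of their tested probe sets, and on that basis 719 of 9785 genes were higher (7.35%) and 930 were lower (9.5%), with a median log2 difference of 0.01 over all genes. In 545 tested probe sets (3.26%) the 2 groups did not overlap in any array, and 523 of these had passed.

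This count rested heavily on which arrays and covariates entered the fit, through the estimated differences as well as the spread. With only the 12 arrays of 6 months it was 348, and among arrays of at least 20 mg it was 435. Fits with tissue mass, the brown adipocyte score or the poly-A signal as a covariate called 1205, 1261 and 469, the last chosen after seeing the data. Of the 2783 main calls, 1069, 893 and 458 passed in the same direction in these fits. The count was 5520 without FBN array 1, 6009 without array 2 and 8888 without both (also chosen after seeing the data). It was 1185 without array 3, 1316 without array 5, 1101 without array 6, 1371 without BN array 5 and 1486 without BN array 6. Over 26 alternative settings, 185 probe sets (100 higher and 85 lower, for 121 genes) passed wherever they were tested.

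Arrays of older rats, which shared no array with the 6-month groups, were used to see how these probe sets stood elsewhere. The log2 differences at each age thus came from separate arrays, but the spread was estimated over the aorta arrays of all ages together. The calls at the different ages were therefore not independent tests, and a probe set with a small shared spread could pass more easily at every age. At 15 months 3590 probe sets passed (21.5%), 1689 of them higher in FBN (10.1%) and 1901 lower (11.4%), and at 24 months 2527 (15.1%), 1193 higher (7.14%) and 1334 lower (7.98%). Of the 2783 probe sets called at 6 months, 1338 (48.1%) passed in the same direction at 15 months, which is 37.3% of those called there, and 1110 (39.9%) at 24 months, 43.9% of those called there. In the opposite direction it was 13 and 6. All 3 ages agreed for 707 probe sets, 290 higher and 417 lower in FBN, and 181 of these had no overlap of the groups at 6 months. Mean tissue mass was 16.2 ± 10.01 mg in FBN against 24.6 ± 2.55 in BN at 15 months and 18.6 ± 7.46 against 25.4 ± 2.79 at 24 months, and the mean brown adipocyte score was 11.3 ± 0.80 against 12.1 ± 0.23 and 11.4 ± 0.67 against 12.04 ± 0.26 (SD). In probe sets called at every age, strain and tissue content cannot be told apart by age alone.

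Dmp1 and Trio were the genes with the largest rise in FBN among those called with 1 symbol. Trio encodes a large signalling protein that acts on the cytoskeleton. Its signals ran from 1719 to 4801 (median 3468) in FBN and 194 to 278 (median 238) in BN, a difference of 3.68 ± 0.24 or 12.8-fold (adjusted p = 4.48e-12). Every FBN array exceeded every BN array by a wide margin, and this held in arrays 1 and 2 (1768 and 1719) as in the others. The gap was 3.78 at 15 months, 3.94 at 24 months and 3.70 in the mesenteric artery at 6 months. Another probe set of Trio showed a difference of 0.03 and did not pass, so the 2 probe sets of this gene disagreed.

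Dmp1, an acidic phosphoprotein best known from the matrix of bone and dentin, ran from 606 to 6139 (median 3475) in FBN and 110.4 to 167 (median 120.4) in BN. The groups did not overlap, at 17.8-fold and a log2 difference of 4.15 ± 0.53 (adjusted p = 3.01e-06), but the FBN arrays differed among themselves. Arrays 1 and 2 stood at 606 and 648, and arrays 3 to 6 between 2615 and 6139, so Dmp1 was highest in the arrays with the most smooth muscle RNA. The difference was 4.98 and 5.20 at the older ages. In the mesenteric artery it was 2.41 ± 0.30, and the difference between vessels did not pass (adjusted p = 0.0874).

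Itga1, the integrin subunit through which smooth muscle cells bind collagen, had signals of 1920.0 to 4826 (median 3376) in FBN and 254 to 806 (median 759) in BN. FBN was higher in 6 of 6 arrays, by 2.37 ± 0.26 (5.16-fold, adjusted p = 2.17e-07), and BN array 4 was far below the other BN arrays. Echdc2, a mitochondrial protein of the enoyl-CoA hydratase family, ran from 823 to 1796 (median 1023) in FBN and 25.8 to 209 (median 163) in BN, a difference of 3.43 ± 0.40 (adjusted p = 5.58e-07) with no overlap. Msrb3, which repairs oxidised methionine in proteins, ran from 1359.9 to 8648 (median 5054) in FBN and 377 to 1081 (median 653) in BN. It differed by 2.59 ± 0.42 (adjusted p = 0.000135), again without overlap, with FBN arrays 1 and 2 the lowest of their group. A dimmer probe set of Msrb3 differed by 0.55 and did not pass.

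Several genes of nucleic acid and protein handling separated the strains with little spread. Rtel1, a helicase that protects telomeres, ran from 730.4 to 1133 (median 905) in FBN and 282 to 448 (median 352) in BN and differed by 1.34 ± 0.12 (adjusted p = 2.78e-09). Prps2, an enzyme that makes the sugar precursor of nucleotides, was higher by 2.05 ± 0.25 (4.15-fold, adjusted p = 1.03e-06), and each of its 3 probe sets rose. The ubiquitin ligase gene Huwe1 ran from 587 to 736 (median 628) in FBN and 193 to 314 (median 216) in BN, a difference of 1.504 ± 0.14 (adjusted p = 5.83e-09). No FBN array fell within the BN range in any of the 3, and for Rtel1 and Huwe1 arrays 1 and 2 lay among the rest of FBN, while for Prps2 they were the lowest of their group. Another probe set of Huwe1 differed by 0.11 and did not pass.

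Fubp3, which binds single-stranded nucleic acids, was higher by 1.75 ± 0.16 (adjusted p = 2.78e-09) on 1 probe set, while its other probe set was lower, at -0.51, and passed as well. The direction for Fubp3 is therefore not settled by these arrays. Trak2, an adaptor that carries mitochondria along microtubules, and Mrpl52, a protein of the mitochondrial ribosome, were higher by 0.94 ± 0.12 and 0.94 ± 0.12 (adjusted p = 1.95e-06 and 3.34e-06), though another probe set of Mrpl52 differed by 0.35 and did not pass. Cyp4v3, a cytochrome P450 that hydroxylates fatty acids, was the only gene of this set with the lower level in FBN. Its signals ran from 1001 to 1156 (median 1089.5) in FBN and 2049 to 3047 (median 2248) in BN, which is -1.14 ± 0.10 on the log2 scale (adjusted p = 2.78e-09). FBN arrays of every mass lay together, and under 26 settings its difference stayed between -1.18 and -1.07. The 10 genes in these 4 paragraphs with the steadiest difference over the ages (Trio, Fubp3, Rtel1, Itga1, Prps2, Cyp4v3, Huwe1, Trak2, Dmp1 and Mrpl52) passed under each of the 26 settings that tested them, and their difference in the mesenteric artery passed as well, from -1.09 for Cyp4v3 to 3.70 for Trio. Other probe sets of Trio, Huwe1 and Mrpl52 did not pass, and that of Fubp3 passed in the other direction. Whether the probes of these genes bind the alleles of both strains alike was not tested.

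**Figure D2:**
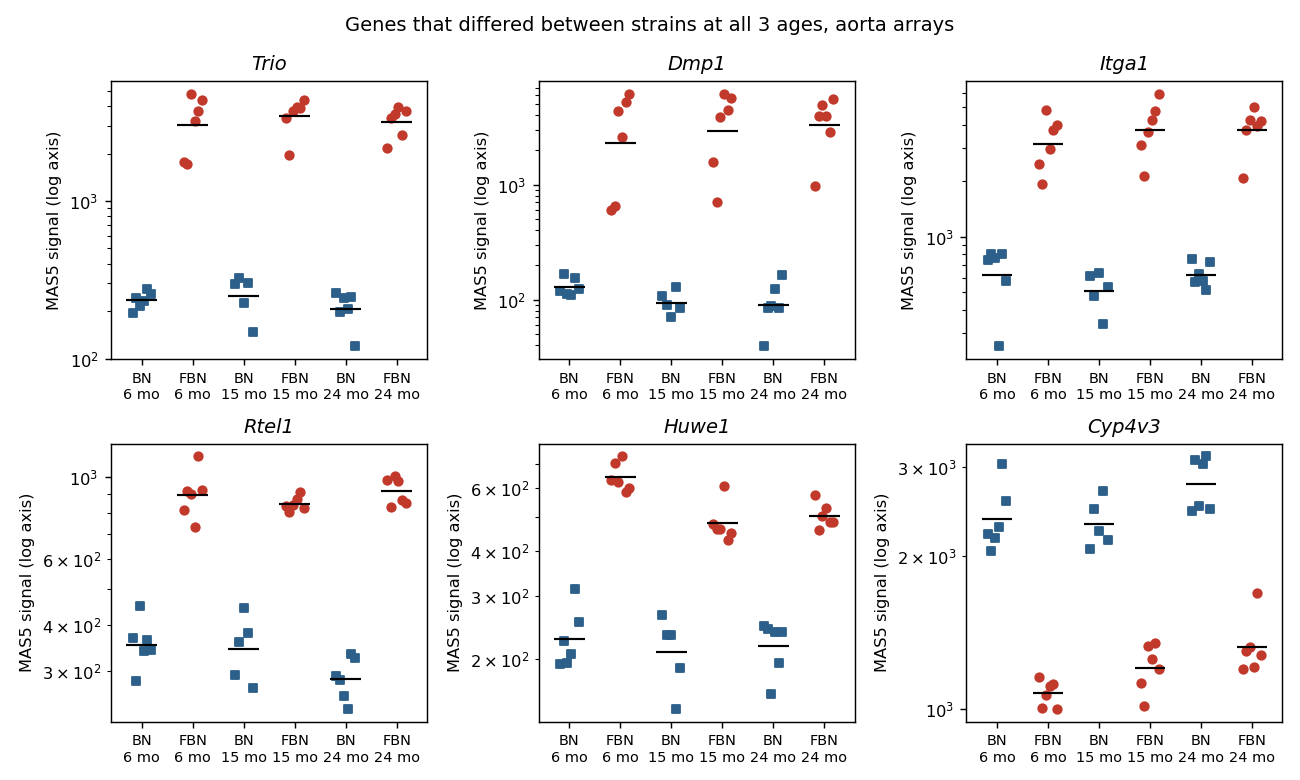
Signals (log axis) of 6 genes in every aorta array of BN (squares) and FBN (circles) at 6, 15 and 24 months; each point is an array and the bars are means of log2 signal. FBN lies above BN for Trio, Dmp1, Itga1, Rtel1 and Huwe1 and below it for Cyp4v3, with no overlap at 6 months.

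The remaining genes with the largest rise had lower signals or a wider spread. Eef1a2, the translation elongation factor of muscle and nerve, ran from 222 to 1573 (median 1054) in FBN and 110.4 to 284 (median 236) in BN. It was higher in FBN by 1.97 ± 0.39 (adjusted p = 0.00126) in 5 of 6 arrays beyond the BN range, and passed under every setting, but its differences of 0.87 at 15 and 0.72 at 24 months did not pass. Alk, a receptor tyrosine kinase, ran from 75.5 to 158 (median 94.8) in FBN and 11 to 38.6 (median 20.2) in BN with no overlap (2.34 ± 0.65, adjusted p = 0.016), dim signals in aorta, where it was tested because the mesenteric arteries were brighter. The test of its dependence on age gave no call. At 15 and 24 months Alk differed by 0.01 and -0.18. Its 6-month call was lost among arrays of at least 20 mg and with the poly-A signal (adjusted p up to 0.11).

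Me2, the mitochondrial malic enzyme, and Dpep1, a membrane dipeptidase, were higher by 2.27 ± 0.58 and 2.13 ± 0.50 (adjusted p = 0.00987 and 0.00524). Both were beyond the BN range in 5 of 6 FBN arrays, and both lost their call with the 12 arrays alone (adjusted p = 0.0772 and 0.0783) and among arrays of at least 20 mg (0.0985 and 0.139). Me2 was also lost with the brown adipocyte score (0.0668) and the poly-A signal (0.125). Further probe sets of Dpep1 gave -0.48 and 0.09 and did not pass. Gigyf1, which takes part in silencing of translation, rose by 2.04 ± 0.48 (adjusted p = 0.00581), while its other probe set differed by 0.07 without passing. Gigyf1 was lost with the 12 arrays alone, among arrays of at least 20 mg and with the poly-A signal (adjusted p up to 0.102). Pnoc, the precursor of the neuropeptide nociceptin, and Ino80e, a subunit of a chromatin remodelling complex, rose by 2.52 ± 0.75 and 1.89 ± 0.57 (adjusted p = 0.0226 and 0.024). Both overlapped between groups. Pnoc did not pass without FBN array 5 or 6 or BN array 6 (adjusted p up to 0.0782), nor Ino80e without FBN array 3, 5 or 6 or BN array 2 or 4 (up to 0.0684). With tissue mass, the brown adipocyte score or the poly-A signal as a covariate the adjusted p of Pnoc was 0.0972, 0.154 and 0.128. Ino80e was also lost with each of these covariates, and its adjusted p reached 0.292 over all settings.

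Genes of striated muscle differed in both directions, and FBN array 1 was far above the rest. Ckm, muscle creatine kinase, had a signal of 17592 in that array, 435 in array 2 and 1274 to 2941 in the others, against 248 to 547 (median 341) in BN. Tcap, which caps titin at the edge of the sarcomere, was at 6334 in array 1 and 156 to 799.7 in the others, against 128 to 253 (median 202) in BN. They were higher by 2.69 ± 0.71 and 1.89 ± 0.63 (adjusted p = 0.012 and 0.0393). The skeletal muscle list was split, with 2 of 9 tested members higher (Ckm and Casq1, the calcium buffer of the sarcoplasmic reticulum, 1.65 ± 0.44, adjusted p = 0.0138) and 2 lower (myoglobin, Mb, -1.97 ± 0.68, adjusted p = 0.0438, and the myosin heavy chain Myh1, -0.50 ± 0.18, adjusted p = 0.0485), and a median of 1.51. Over all genes 7.35% were higher and 9.5% lower. Ckm and Casq1 lost their calls with the 12 arrays alone and among arrays of at least 20 mg. Both were also lost with the brown adipocyte score and the poly-A signal (adjusted p up to 0.135 and 0.159 over all settings). Without FBN array 1, Ckm and Casq1 still passed, and Tcap did not (adjusted p = 0.0766). Tcap also did not pass without FBN array 3, 5 or 6 or BN array 1, 2, 3, 5 or 6 (up to 0.0857). Mb was at 10992 in array 1, 1296 in array 2 and 212 to 355 in the others, against 1458 to 3463 (median 2745) in BN. Mb and Myh1 lost their calls without most single arrays (up to 0.13 and 0.134).

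Genes for making fatty acids and triglyceride were lower in FBN, with 8 list members called. Of 19 tested members of the fatty acid synthesis list, 8 fell and none rose, against 9.5% lower and 7.35% higher over all genes. The median difference of the 19 was -1.20, against 0.01 over all genes. At 15 and 24 months 13 and 10 of them fell, against 11.4% and 7.98% of all probe sets. Elovl6, which lengthens palmitate, had signals of 1118 to 30093 (median 4528) in FBN and 16536 to 31628 (median 27296) in BN, and Acacb, an acetyl-CoA carboxylase, had signals of 20.5 to 2174 (median 636) in FBN and 1682 to 3131 (median 2345) in BN. They differed by -2.40 ± 0.65 and -2.78 ± 0.83 (adjusted p = 0.0143 and 0.0232). In both, FBN arrays 1 and 2 lay within the BN range, array 4 was below it, and arrays 3, 5 and 6 were far below it, so the groups overlapped.

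The same order of arrays held for the enzymes around them. Slc25a1, which exports citrate from mitochondria for fat synthesis, ran from 2850.4 to 18708 (median 6247) in FBN and 15821 to 25551 (median 22913) in BN (-1.59 ± 0.34, adjusted p = 0.00301). Gpam, which starts triglyceride synthesis, differed by -2.23 ± 0.59, Acsl5, which activates fatty acids, by -2.23 ± 0.54, and Pgd, a source of NADPH, by -1.37 ± 0.39 (adjusted p = 0.0123, 0.00678 and 0.0199). Gpd1, which makes glycerol phosphate, fell by 2.57 ± 0.89 (adjusted p = 0.0459), and Acaca, the carboxylase of fat synthesis, by 2.41 ± 0.84 (adjusted p = 0.0457) on its dimmer probe set, whereas its brighter probe set differed by -0.85 and another probe set of Gpd1 by -0.49, neither passing. Pnpla3, a lipid droplet enzyme, and the desaturase Scd were lower, at -2.29 ± 0.63 and -1.66 ± 0.56 (adjusted p = 0.0155 and 0.0415). In 4 of 6 FBN arrays (3 to 6), Gpam, Acsl5, Pgd, Gpd1 and Pnpla3 were below every BN array.

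None of the 19 members passed with the 12 arrays alone or among arrays of at least 20 mg, 1 passed with tissue mass as a covariate, 1 with the poly-A signal and 3 with the brown adipocyte score. Leaving out FBN array 3, 5 or 6 left 2 each, and leaving out FBN array 1 or 2 gave 15 each. Of all 16717 probe sets, 634, 713 and 583 were lower without FBN array 3, 5 or 6, and 2831 and 2990 without array 1 or 2. The call of Slc25a1 was kept with mass (adjusted p = 0.0067), with the brown adipocyte score (0.00868) and with the poly-A signal (0.0464). Elovl6, Acacb and Pgd did not pass without FBN array 3, 5 or 6 (adjusted p up to 0.0562, 0.0886 and 0.0739), nor did Acacb without BN array 5 (0.0526). Pnpla3 did not pass without FBN array 5 or 6 (up to 0.0615). Gpd1 and Scd lost their calls without FBN array 3, 5 or 6 and without any single BN array (up to 0.158 and 0.151), as did Acaca, except without BN array 2 (up to 0.167).

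**Figure D3:**
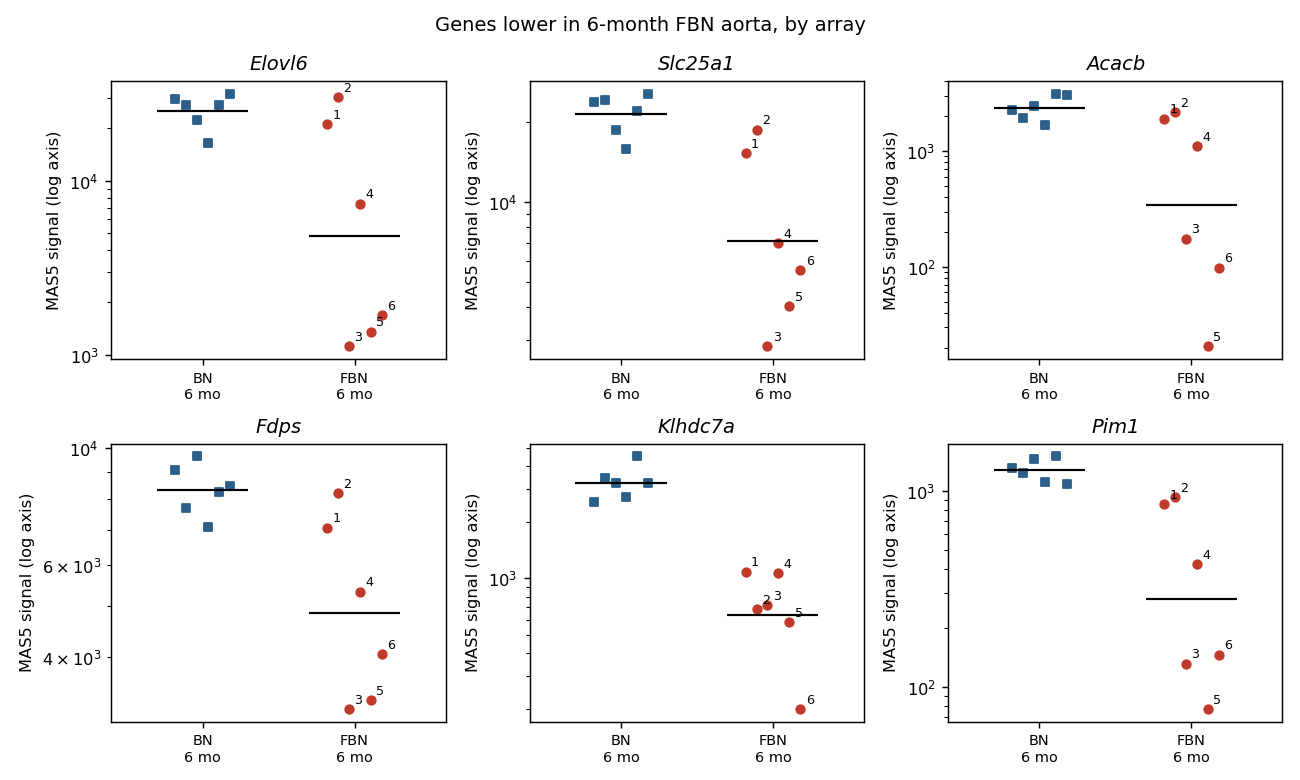
Signals (log axis) of 6 genes that were lower in FBN in each of the 12 aorta arrays of 6 months; squares are BN, numbered circles are FBN arrays, and bars are means of log2 signal. FBN arrays 1 and 2 lie within or next to the BN range for Elovl6, Slc25a1, Acacb and Fdps, whereas all 6 FBN arrays lie below BN for Klhdc7a and Pim1.

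Genes of cholesterol synthesis were lower as well. Of 11 tested members 6 fell, against 9.5% over all genes, and none rose, with a median of -0.78. At 15 months 6 fell, and at 24 months 1, against 11.4% and 7.98% of all probe sets. The proximal promoters of these genes are known to be controlled by SREBP together with the CCAAT-binding factor NF-Y, so the 250 bases before the start of 3 genes that fell are shown, from RefSeq on GRCr8, a build made from a BN rat. Capitals mark CCAAT or its reverse complement ATTGG. The windows are chr2:176804817-176805066 on the minus strand for Fdps, chr20:12118231-12118480 on the minus strand for Lss and chr8:51538278-51538527 on the minus strand for Sc5d.
Fdps: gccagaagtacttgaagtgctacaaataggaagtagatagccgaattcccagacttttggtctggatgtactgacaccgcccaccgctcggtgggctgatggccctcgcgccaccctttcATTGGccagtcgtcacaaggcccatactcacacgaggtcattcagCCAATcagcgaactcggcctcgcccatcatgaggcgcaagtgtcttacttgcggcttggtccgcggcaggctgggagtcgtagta
Lss: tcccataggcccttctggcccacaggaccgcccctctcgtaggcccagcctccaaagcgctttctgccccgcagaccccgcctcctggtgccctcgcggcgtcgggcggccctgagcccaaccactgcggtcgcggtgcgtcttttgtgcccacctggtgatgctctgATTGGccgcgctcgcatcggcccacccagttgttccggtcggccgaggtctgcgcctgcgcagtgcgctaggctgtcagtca
Sc5d: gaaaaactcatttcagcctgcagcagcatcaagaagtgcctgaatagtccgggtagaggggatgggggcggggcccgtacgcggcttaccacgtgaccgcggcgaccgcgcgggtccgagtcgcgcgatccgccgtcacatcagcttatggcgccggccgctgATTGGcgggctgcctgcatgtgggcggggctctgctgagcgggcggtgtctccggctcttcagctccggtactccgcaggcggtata
CCAAT was found on either strand in 7 of the 9 list members that matched the promoter table, and in 34.3% of all 27457 promoter windows of that length. A strict form of the sterol response element, TCACNCCAC on either strand, was found in none of the 9 and in 0.976% of all windows. These matches describe the reference letters only.

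Fdps, which makes farnesyl pyrophosphate, had signals of 3188 to 8209 (median 4693) in FBN and 7096 to 9651 (median 8371) in BN and differed by -0.78 ± 0.16 (adjusted p = 0.00271). Lss, which closes the sterol rings, ran from 575 to 1692 (median 867) in FBN and 1180.1 to 2117 (median 1859.8) in BN (-0.86 ± 0.19, adjusted p = 0.00336). Fdft1, squalene synthase, ran from 1044 to 2867 (median 1453) in FBN and 2210.3 to 4199 (median 3249.7) in BN (-0.95 ± 0.24, adjusted p = 0.00999). In these 3, FBN arrays 1 and 2 were within or next to the BN range and arrays 3, 5 and 6 were the lowest. Sc5d, a late sterol desaturase, was different in that all 6 FBN arrays lay below all BN arrays, from 1479.6 to 1998 (median 1715) in FBN and 2161 to 2881 (median 2428) in BN (-0.51 ± 0.15, adjusted p = 0.0217). Of its other 2 probe sets 1 passed in the same direction. With the 12 arrays alone 1 of the 11 members passed, with tissue mass 4, with the brown adipocyte score 3, with the poly-A signal 2, and among arrays of at least 20 mg none. Leaving out FBN array 3 or BN array 5 left 3, and Sc5d did not pass in either case (adjusted p up to 0.0593).

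Other genes with a large fall included some in which even the heavy FBN arrays lay below BN. Klhdc7a, a kelch domain gene, had signals of 200.1 to 1083 (median 703) in FBN and 2553 to 4489.9 (median 3235) in BN and fell by 2.34 ± 0.46 (adjusted p = 0.00136), and it passed under every setting. Iqgap2, a scaffold of the cytoskeleton, ran from 308 to 2331 (median 807) in FBN and 3193 to 5511 (median 3569) in BN (-2.39 ± 0.45, adjusted p = 0.000954), and Pim1, a kinase of cell survival, ran from 76.7 to 929 (median 283) in FBN and 1084 to 1503 (median 1272) in BN (-2.18 ± 0.42, adjusted p = 0.00116). In these 3 genes the groups did not overlap. For Iqgap2 and Pim1 the FBN arrays kept the order of the lipid genes, with 1, 2 and 4 above 3, 5 and 6, but in Klhdc7a arrays 2 and 3 were alike. Among arrays of at least 20 mg Iqgap2 and Pim1 did not pass (adjusted p = 0.0553 and 0.0691), and Pim1 was also lost with the 12 arrays alone.

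Krt79, a keratin, ran from 14.9 to 406 (median 213) in FBN and 639.8 to 1613 (median 1024) in BN without overlap (-2.94 ± 0.67, adjusted p = 0.00455). Odad4, a part of the dynein docking complex of cilia, and Rap1gap, which switches off Rap GTPases, fell, with differences of -2.79 ± 0.71 and -2.19 ± 0.47 (adjusted p = 0.0102 and 0.003), each in 5 of 6 FBN arrays below the BN range. Krt79, Odad4 and Rap1gap lost their calls with the 12 arrays alone, among arrays of at least 20 mg and with the poly-A signal. Odad4 was also lost with the brown adipocyte score. Over all settings the adjusted p reached 0.121, 0.258 and 0.127. Npr3, the clearance receptor for natriuretic peptides, had the largest fall of the named genes, -2.996 ± 0.87 (adjusted p = 0.0208), with signals of 9.92 to 2179 (median 255) in FBN and 638 to 1272 (median 973) in BN. It did not pass without FBN array 3, 5 or 6 (adjusted p up to 0.0801), nor with tissue mass, the brown adipocyte score or the poly-A signal (0.0982, 0.162 and 0.278). Tspan17, a tetraspanin, fell by 2.19 ± 0.75 (adjusted p = 0.0434), but lost its call without FBN array 3, 5 or 6 or any single BN array (up to 0.157), and its other probe set differed by -0.70 and did not pass.

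In the general adipocyte, brown adipocyte and mitochondrial lists medians were negative and few members passed. The share that fell was below the 9.5% of all genes in each of these lists but fatty acid oxidation. In the white adipocyte list 1 of 5 tested members fell, Npr3, and the median was -0.09. In the general adipocyte list 1 of 15 fell, Adipoq, the hormone adiponectin (7556 to 41992, median 17681, in FBN and 32545 to 44693, median 35473, in BN, -1.15 ± 0.35, adjusted p = 0.0255), and the median was -0.83. In the brown adipocyte list 1 of 12 fell, Ebf2, a factor that commits cells to brown fat (214 to 1010.2, median 564, in FBN and 911 to 2057, median 1214, in BN, -1.35 ± 0.34, adjusted p = 0.0088), with a median of -0.77. Ebf2 did not pass with the 12 arrays alone (0.0754 as adjusted p), the brown adipocyte score (0.0538), the poly-A signal (0.169) or among arrays of at least 20 mg (0.169). The brown adipocyte score includes Ebf2 itself, so the fit with that score set the gene partly against its own signal. Leptin (Lep) was at 7.98 to 633 in FBN and 55.6 to 417 in BN, and it was too dim to be tested. Fatty acid oxidation had 4 of 19 members lower, among them Cpt2 (-1.65 ± 0.54) and Decr1 (-1.29 ± 0.44), enzymes of mitochondrial fat burning (adjusted p = 0.0362 and 0.0433), and a median of -0.99. Of the respiratory chain 2 of 35 fell (median -0.55), among them Ndufs4 of complex I (-0.88 ± 0.27, adjusted p = 0.0276), and of the citrate cycle 0 of 20 (median -0.79). The counts of these 3 lists were 18, 29 and 17 at 15 months and 7, 1 and 3 at 24 months. Over all probe sets 11.4% were lower at 15 months and 7.98% at 24 months.

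These counts depended on single FBN arrays. Without FBN array 1 or 2, the oxidation list had 16 and 16 lower, the respiratory chain 16 and 23, and the citrate cycle 17 and 19. In these fits 2831 and 2990 of all 16717 probe sets were lower, against 1493 in the main fit. Without array 3, 5 or 6, each of the 3 lists had 0, and the oxidation list also had 0 without BN array 1, 2, 3, 5 or 6. Over all probe sets 634, 713 and 583 were lower without FBN array 3, 5 or 6. With the brown adipocyte score as a covariate the medians were -0.08, 0.12 and -0.03, none fell, and 2 respiratory chain genes rose. Adipoq did not pass without FBN array 3, 5 or 6 or BN array 5 or 6 (adjusted p up to 0.0931), Ndufs4 likewise and also without BN array 3 (up to 0.0882), and Cpt2 and Decr1 not without FBN array 3, 5 or 6 or BN array 1, 2, 3, 5 or 6 (up to 0.115 and 0.131). Glycolysis had 1 of 17 higher, the glucose transporter Slc2a1 (0.80 ± 0.25, adjusted p = 0.0279), and 2 lower, the insulin-responsive transporter Slc2a4 (-0.74 ± 0.25, adjusted p = 0.0428) and the enzyme Pgam1 (-0.68 ± 0.24, adjusted p = 0.0448), each lost without FBN array 3, 5 or 6 or BN array 5 or 6 (up to 0.0948, 0.128 and 0.14 over all single arrays). Over all genes 7.35% were higher and 9.5% lower.

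Some ribosomal protein genes were slightly higher in FBN. Of 22 tested members 11 rose, against 7.35% over all genes, and none fell. All 22 had a positive difference, and the median was 0.25. Rpl18 ran from 24704 to 31596 (median 30428) in FBN and 20986 to 23633 (median 22542) in BN, 1.3-fold higher without overlap (0.38 ± 0.07, adjusted p = 0.000634). Rps6 had no overlap either (0.25 ± 0.06, adjusted p = 0.0101), and Rplp0 and Rps15 were beyond BN in 5 of 6 FBN arrays (0.42 ± 0.08 and 0.31 ± 0.08, adjusted p = 0.00135 and 0.011). The mean log2 signal of the 22 genes was 14.741 in FBN array 1, within the BN range of 14.574 to 14.766, and 14.85 to 15.06 in the other FBN arrays, all above it. The count was 5 without FBN array 3 or 6, 6 without BN array 3, 5 or 6, 16 without FBN array 1, 6 with tissue mass, 5 with the brown adipocyte score, 2 with the poly-A signal or among arrays of at least 20 mg, and 0 with the 12 arrays alone. Without FBN array 1, 2689 of all 16717 probe sets were higher, against 1290 in the main fit. At 15 and 24 months 5 and 16 rose, against 10.1% and 7.14% of all probe sets. In the mesenteric artery none rose and 7 fell, against 5.06% higher and 5.73% lower over all probe sets.

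In the lists of the wall itself some members passed, to be read against 7.35% higher and 9.5% lower over all genes. Of the 18 contractile smooth muscle genes, 16 had a positive difference (median 0.39) but only Smtn, smoothelin of differentiated smooth muscle, rose (1402 to 9512, median 6190.3, in FBN and 1421 to 2296, median 1918, in BN, 1.19 ± 0.41, adjusted p = 0.046), and it lost its call without any single array but FBN 1 or 2 (up to 0.143). Myh11, smooth muscle myosin, differed by 0.26 ± 0.26 (adjusted p = 0.475). The sign for Acta2 and Myh11 was not fixed over the settings, which gave -0.11 to 1.40 and -0.21 to 0.72. Acta2 passed without FBN array 2 (adjusted p = 0.0385), and both passed with array weights (0.00026 and 0.00787), with only FBN arrays under 20 mg (0.00504 and 0.0318) and without FBN arrays 1 and 2 (0.0011 and 0.0101). Of 22 matrix genes 3 rose, the protease inhibitor Timp1 (1.28 ± 0.36), Sparc (0.77 ± 0.25) and the fibrillar collagen Col5a1 (0.95 ± 0.33), and 1 fell, the basement membrane collagen Col4a1 (-0.57 ± 0.16). Their adjusted p values were 0.0174, 0.0374, 0.0447 and 0.0167. The list's median was 0.27. Each of the 4 overlapped between groups and lost its call without FBN array 3, 5 or 6 (up to 0.0613, 0.113, 0.142 and 0.0605), and the rises also without some of FBN array 4 and BN arrays 2, 5 and 6. With tissue mass, the brown adipocyte score or the poly-A signal, Timp1 had an adjusted p of 0.0757, 0.116 and 0.19. Sparc, Col5a1 and Col4a1 were lost with each of these covariates as well.

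Among the other cells of the vessel, none of 13 endothelial genes, 16 macrophage genes, 3 lymphocyte genes or 2 mast cell genes passed. Counts in these and the following lists stand against 7.35% higher and 9.5% lower over all genes. Pecam1, of the endothelial junction, ran from 1870.0 to 3854 (median 3345) in FBN and 2643 to 3857 (median 3589.8) in BN (-0.17 ± 0.14, adjusted p = 0.364). Clec3b of the fibroblast and adventitia list rose (1 of 11, 0.82 ± 0.25, adjusted p = 0.0254), as did the keratin Krt8 of mesothelium (1 of 7, 0.79 ± 0.22, adjusted p = 0.0163). Another probe set of Clec3b gave 0.01. Clec3b did not pass without FBN array 3, 4, 5 or 6 or BN array 5 or 6 (up to 0.0805), nor Krt8 without FBN array 5 or 6 (up to 0.0583). Both were also lost with tissue mass, the brown adipocyte score or the poly-A signal as a covariate. Of 8 nerve and Schwann cell genes 3 fell, and the list's median was -0.93. The sodium channel gene Scn7a ran from 632 to 3156 (median 1361) in FBN and 2765 to 3516 (median 3453) in BN, a difference of -1.28 ± 0.38 (adjusted p = 0.0223). Myelin basic protein, Mbp, ran from 369 to 4292 (median 1304) in FBN and 2582 to 4472 (median 3829.7) in BN (-1.57 ± 0.47, adjusted p = 0.0233), and the glial gene S100b from 2667 to 18532 (median 8251) in FBN and 13943 to 18259 (median 15457) in BN (-1.11 ± 0.37, adjusted p = 0.0383). FBN arrays 3, 5 and 6 were again the lowest, and without any of these 3 none of the list passed. With the 12 arrays alone, tissue mass or the poly-A signal none passed. With the brown adipocyte score, Scn7a, Mbp and S100b did not pass (adjusted p = 0.155, 0.0876 and 0.337), and 1 other member of the list did.

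Some receptors, enzymes and channels that set vessel tone passed in each direction, to be read against the 7.35% higher and 9.5% lower over all genes. P2ry2, a nucleotide receptor of endothelium and smooth muscle, passed at all ages and in both vessels. Its signals ran from 745 to 2066 (median 1491) in FBN and 425 to 748 (median 624) in BN, beyond BN in 5 of 6 FBN arrays (1.21 ± 0.20, adjusted p = 0.000181), and it passed under every setting, at 15 and 24 months (0.95 and 0.96) and in the mesenteric artery (0.67). Ptger3, a prostaglandin receptor, ran from 309 to 1230.4 (median 769.5) in FBN and 1243 to 1672 (median 1573) in BN with no overlap (-1.08 ± 0.24, adjusted p = 0.00351), and at the older ages its differences of -0.27 and -0.16 did not pass. At 6 months Ptger3 was lost with the 12 arrays alone and with the poly-A signal (adjusted p up to 0.0754). Agtr1b, an angiotensin receptor, was higher on a dim signal (67.7 to 499.7, median 265, in FBN and 42.4 to 91.1, median 75.6, in BN, 1.83 ± 0.60, adjusted p = 0.0353). It was higher by 3.57 and 2.79 at 15 and 24 months, although at 6 months it did not pass without FBN array 3, 4, 5 or 6 or BN array 1, 2, 5 or 6 (adjusted p up to 0.105), nor with tissue mass, the brown adipocyte score or the poly-A signal (0.157, 0.254 and 0.256). In all, 3 of 14 receptors rose, the third being Npr1, the natriuretic peptide receptor that makes cyclic GMP (1.07 ± 0.36, adjusted p = 0.0413), and 2 fell, Ptger3 and Npr3.

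Of 8 genes of the renin-angiotensin and endothelin systems 2 fell, both peptidases that break down vasoactive peptides. Enpep, which trims angiotensin, ran from 1732 to 14376 (median 3798) in FBN and 8962 to 14519 (median 11841) in BN (-1.48 ± 0.37, adjusted p = 0.00824), and Mme, neprilysin, ran from 788 to 8583 (median 2228) in FBN and 6240.1 to 10058 (median 8278) in BN (-1.84 ± 0.57, adjusted p = 0.0282). FBN arrays 3 to 6 were below the BN range in both. Enpep did not pass with the 12 arrays alone, among arrays of at least 20 mg or with the poly-A signal (adjusted p up to 0.275). Mme did not pass without FBN array 3, 5 or 6 or BN array 5 or 6 (up to 0.0958) or with any of the 3 covariates (0.135, 0.113 and 0.362 with mass, brown adipocyte score and poly-A signal), and another probe set of Enpep differed by 0.72 and did not pass. Angiotensinogen, Agt, ran from 3241 to 18904 (median 5240.4) in FBN and 2692 to 5218 (median 3970.4) in BN and did not pass (0.79 ± 0.53, adjusted p = 0.267), but it passed with tissue mass (1.55, adjusted p = 0.0119) and with the brown adipocyte score (1.86, adjusted p = 0.000271) as a covariate. Of 16 ion channel genes 2 fell, the cation channel Trpv2 (-1.09 ± 0.32) and the potassium channel Kcna5 (-0.95 ± 0.30), with adjusted p of 0.0228 and 0.0315. Neither passed without FBN array 3 or 5 or BN array 5 (up to 0.088 and 0.11), nor Kcna5 without FBN array 6 or BN array 1 or 6 (up to 0.0824). With the same covariates in that order the adjusted p of Kcna5 was 0.157, 0.279 and 0.302. Trpv2 was lost with the brown adipocyte score and the poly-A signal but not with tissue mass (adjusted p up to 0.189 over all settings). None of 6 nitric oxide and cyclic GMP genes passed.

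Some oxidant defence and detoxification genes passed in each direction, and their counts stand against 7.35% higher and 9.5% lower over all genes. Of 22 oxidant defence genes 3 rose, among them the peroxidase Gpx1 (21590.0 to 34382, median 31639, in FBN and 15130.0 to 21846, median 19896, in BN, 0.62 ± 0.15, adjusted p = 0.00594) and Cybb, the phagocyte oxidase subunit (0.98 ± 0.26, adjusted p = 0.0137, and 0.0643, 0.0894 and 0.0564 with tissue mass, the brown adipocyte score and the poly-A signal). The third, Txnrd1, thioredoxin reductase, rose by 0.30 ± 0.08 (adjusted p = 0.0138, and 0.0504 without FBN array 6). Other probe sets of Cybb and Txnrd1 gave 0.08 and -0.01 and did not pass. Gclm, which limits glutathione synthesis, fell without overlap, from 475 to 1188 (median 864) in FBN and 1191 to 2048 (median 1475) in BN (-0.92 ± 0.21, adjusted p = 0.00393). Of 26 glutathione transferase and detoxification genes 3 rose and 4 fell. The metallothionein Mt2A rose without overlap (3049.7 to 5930.5, median 4232, in FBN and 1965 to 2896, median 2420.2, in BN, 0.78 ± 0.17, adjusted p = 0.00285), Gstp1 and Gsta1 rose by 0.47 ± 0.10 and 0.41 ± 0.10, and Gsta4 fell by 0.99 ± 0.23 (adjusted p = 0.00368, 0.0101 and 0.00449). Gsta4 was lower at 15 and 24 months as well (-1.13 and -0.97). At 6 months Gpx1, Gclm, Gstp1, Gsta1 and Gsta4 lost their calls with the 12 arrays alone, among arrays of at least 20 mg and with the poly-A signal. Mt2A was lost among arrays of at least 20 mg (adjusted p = 0.158).

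Lcn2, lipocalin, an iron-binding defence protein, was lower in FBN at every age and in both vessels. Its signals ran from 153 to 308 (median 231) in FBN and 483 to 690.1 (median 558) in BN with no overlap (-1.36 ± 0.22, adjusted p = 0.000188), and its differences were -1.29, -1.13 and, in the mesenteric artery, -1.14. It passed under every setting. The chemokine Cxcl12 fell too (-1.25 ± 0.35, adjusted p = 0.0165, up to 0.0626 without FBN array 3 or 6, and 0.0601, 0.0835 and 0.205 with tissue mass, the brown adipocyte score and the poly-A signal), making 2 of 12 inflammatory genes, but its other probe sets ranged from -0.74 to 0.13 without passing. RT1-Ba, a class II histocompatibility chain that presents peptides to T cells, ran from 1586 to 3266 (median 2180.2) in FBN and 3819 to 5115 (median 4035) in BN with no overlap (-0.99 ± 0.21, adjusted p = 0.003) and passed under every setting. Of its other 2 probe sets 1 passed in the same direction. RT1-DMa, which loads those peptides, fell by 0.87 ± 0.28 (adjusted p = 0.0326) but not without FBN array 3, 5 or 6 or BN array 3, 5 or 6 (up to 0.117). Its call was also lost with tissue mass, the brown adipocyte score or the poly-A signal. RT1-Ba and RT1-DMa were 2 of 17 tested genes. This count and that of the inflammatory genes stand against 9.5% lower over all genes. RT1-Ba and RT1-DMa lie in a region whose alleles differ between rat strains, and whether probes bind the alleles alike was not tested.

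Of 14 interferon-stimulated genes 2 rose (Irf7, 0.57 ± 0.18, without overlap, and Isg15, 0.60 ± 0.21) and 1 fell (Oas1a, -0.99 ± 0.30), with adjusted p of 0.0295, 0.046 and 0.0266. None of the 3 passed without FBN array 5 or 6 or BN array 1, and each was also lost without other single arrays (up to 0.0672, 0.144 and 0.0965). Of 17 clock genes Rora fell (-0.66 ± 0.21, adjusted p = 0.0297), of 18 immediate early genes Zfp36 rose (0.56 ± 0.17, adjusted p = 0.0294), and of 12 heat shock and unfolded protein genes Dnajb9 fell (-0.37 ± 0.13, adjusted p = 0.0499). Each of these was lost without FBN array 3 or BN array 3 or 5 and without other single arrays (up to 0.109, 0.0974 and 0.166). None of 7 cell cycle genes, 11 thyroid and glucocorticoid response genes, 6 cartilage and calcification genes, 2 erythrocyte genes or 1 cardiac muscle gene passed. The counts of this paragraph stand against 7.35% higher and 9.5% lower over all genes.

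**Figure D4:**
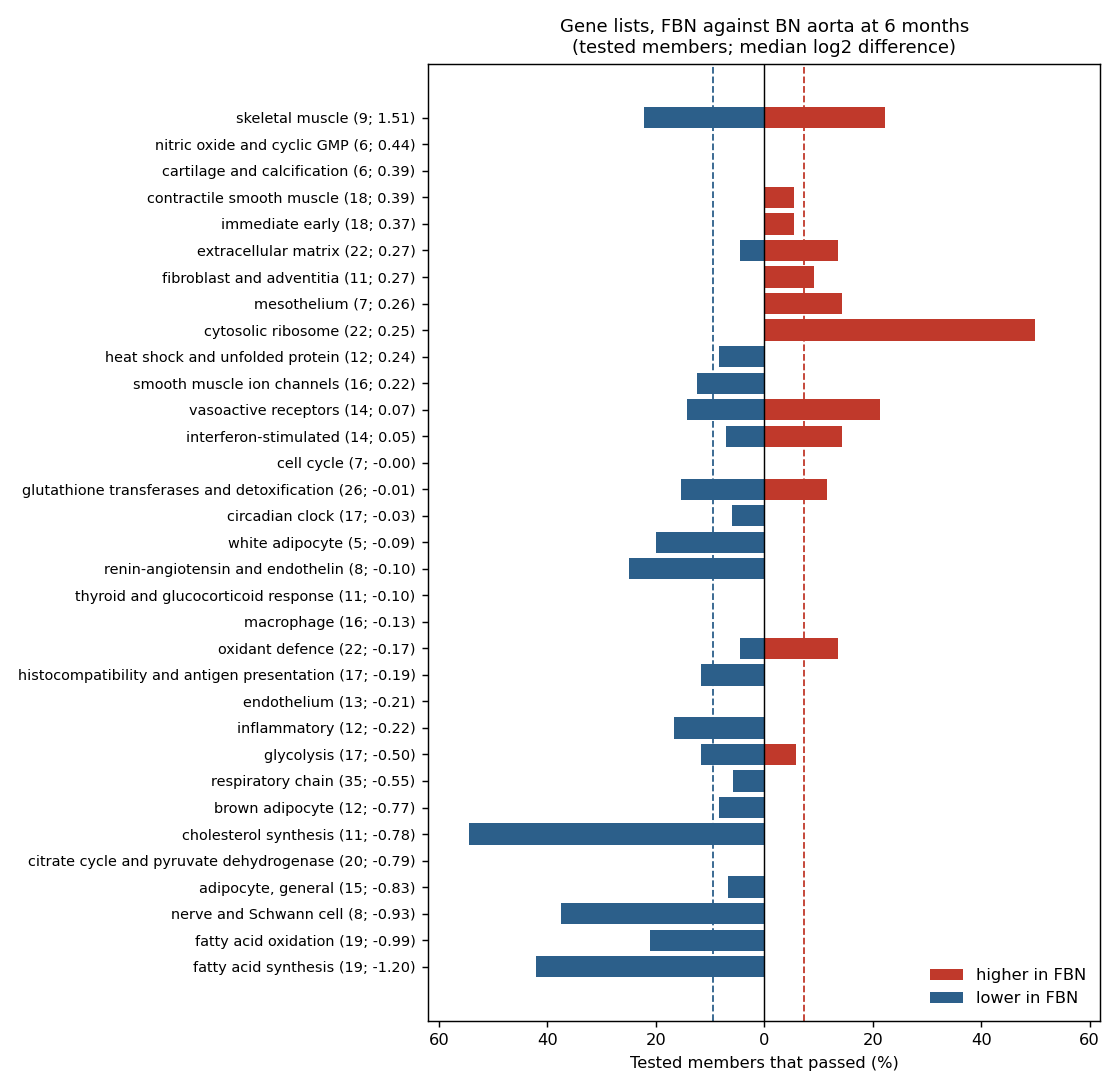
Share of the tested members of each gene list with at least 5 tested members that was higher (right) or lower (left) in FBN aorta at 6 months, in percent; the names give the number tested and the median log2 difference, and the dashed lines are the shares over all genes, 7.35% and 9.5%. Cholesterol synthesis (6 of 11) and fatty acid synthesis (8 of 19) have the longest bars to the left, and the cytosolic ribosome (11 of 22) the longest to the right.

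Few probe sets were called as having a strain difference particular to 6 months, which does not show that the others were alike at all ages. The test of the 6-month difference against the mean of the 15- and 24-month differences called 4 probe sets (0.0239%), 1 more positive at 6 months (0.00598%) and 3 more negative (0.0179%), with 993 at an unadjusted p under 0.05. Cav2, a caveolin of the membrane pits of muscle, fat and endothelium, had signals of 8306 to 12908 (median 10464) in FBN and 13487 to 16758 (median 14879) in BN with no overlap. It was lower in FBN, at -0.53 ± 0.13, in the 6-month arrays (adjusted p = 0.00756) and higher by 0.68 ± 0.14 and 0.43 ± 0.13 at 15 and 24 months (adjusted p = 0.00127 and 0.0262), and the change with age was -1.08 ± 0.16 (adjusted p = 0.00183). It was called with each array left out in turn. Of its other 3 probe sets 1 was also lower at 6 months. The 6-month call of Cav2 was lost with the 12 arrays alone and with the poly-A signal (adjusted p up to 0.0578).

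Nutf2, which carries Ran into the nucleus, was higher at 6 months, from 2479 to 3736 (median 2994) in FBN and 1538 to 1945 (median 1781) in BN (0.79 ± 0.10, adjusted p = 5.35e-06), against differences of -0.07 and 0.18 later (change 0.73 ± 0.13, adjusted p = 0.0212). Id4, an inhibitor of basic helix-loop-helix factors, was lower at 6 months, from 234 to 535 (median 309) in FBN and 576 to 1119.6 (median 754) in BN (-1.15 ± 0.23, adjusted p = 0.00164), against 0.37 and 0.32 later (change -1.50 ± 0.29, adjusted p = 0.0426). Krit1, which stabilises endothelial junctions, was lower at 6 months (-0.42 ± 0.10, adjusted p = 0.00526), with a change of -0.65 ± 0.12 (adjusted p = 0.0364). All 4 genes had no overlap between the groups at 6 months. The 6-month call of Krit1 was lost with the 12 arrays alone and with only FBN arrays under 20 mg (adjusted p up to 0.0815). The change with age of Nutf2 was lost without FBN array 2 or BN array 2, 4 or 6 of 6 months (adjusted p up to 0.0749), and those of Id4 and Krit1 without most of the single arrays (up to 0.133 and 0.0942), so that 1 to 9 probe sets were called when single arrays were left out. At 6 months, other probe sets of Nutf2 (0.20) and Id4 (-0.51 to -0.34) did not pass.

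In the mesenteric artery at 6 months 1804 probe sets passed (10.8%), 846 of them higher in FBN (5.06%) and 958 lower (5.73%). Among them were 527 of the aortic calls (18.9%, 29.2% of the mesenteric ones) in the same direction, and 26 in the opposite one. There the masses were 8.62 ± 2.78 mg in FBN and 8.63 ± 1.92 in BN, and the brown adipocyte scores were 7.80 ± 0.16 and 7.89 ± 0.18 (SD, n = 6 each). Of the 707 probe sets called at all ages in aorta, 198 were also called there. The fatty acid synthesis list had 3 of 19 members higher in the FBN mesenteric artery and none lower (median -0.01), the cholesterol list 0 of 11 (median 0.22). A direct test of the aortic against the mesenteric difference called 563 probe sets (3.37%), 255 more positive in aorta (1.53%) and 308 more negative (1.84%).

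Scd, which makes monounsaturated fat, had the largest such dependence among the named genes. In aorta its signals ran from 4064 to 84043 (median 35135) in FBN and 56898 to 77000.0 (median 67021) in BN. In the mesenteric artery they ran from 2416 to 6094 (median 5082) in FBN and from 169 to 749 (median 348) in BN without overlap, a difference of 3.66 ± 0.61 (adjusted p = 0.000129). The vessels' differences were thus opposite in sign, and they differed by -5.32 ± 0.85 (adjusted p = 0.000345), also with any single array left out. Iqgap2 and Rap1gap, lower in FBN aorta, differed by 0.42 and 0.51 in the mesenteric artery (dependence -2.81 ± 0.52 and -2.70 ± 0.54, adjusted p = 0.00178 and 0.00327), and these too held with any array left out. The lipid droplet gene Pnpla3 and the membrane protein gene Tmem79 also ran more negative in aorta (-3.13 ± 0.88 and -3.44 ± 0.96, adjusted p = 0.0348 and 0.0336).

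In the other direction stood Tcap (2.95 ± 0.78) and 4 genes whose 6-month difference in aorta did not itself pass. The collagen-modifying gene P3h4 differed by 1.96 in aorta and -0.81 in the mesenteric artery (dependence 2.77 ± 0.80), and the protease inhibitor Serpina3n by 0.77 and -1.80 (2.57 ± 0.69). Ltbp2, which binds latent growth factor in elastic matrix, differed by 0.91 and -1.43 (2.35 ± 0.59), and Chn2, a Rac GTPase-activating protein, by 0.43 and -1.86 (2.29 ± 0.67). The adjusted p of the dependence was 0.0273, 0.041, 0.0285, 0.0182 and 0.0442 in this order. All 5 FBN differences were negative in the mesenteric artery. Single arrays decided many of these calls. Without FBN aorta array 3, P3h4, Serpina3n, Ltbp2, Chn2, Pnpla3 and Tmem79 did not pass, and without array 6 all of these but Serpina3n, and Tcap. BN aorta array 5 or 6 or single mesenteric arrays ended some of them too, and the highest adjusted p over all single arrays was 0.054 for Tcap, 0.108 for P3h4, 0.0614 for Serpina3n, 0.0534 for Ltbp2, 0.111 for Chn2, 0.102 for Pnpla3 and 0.0935 for Tmem79.

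**Figure D5:**
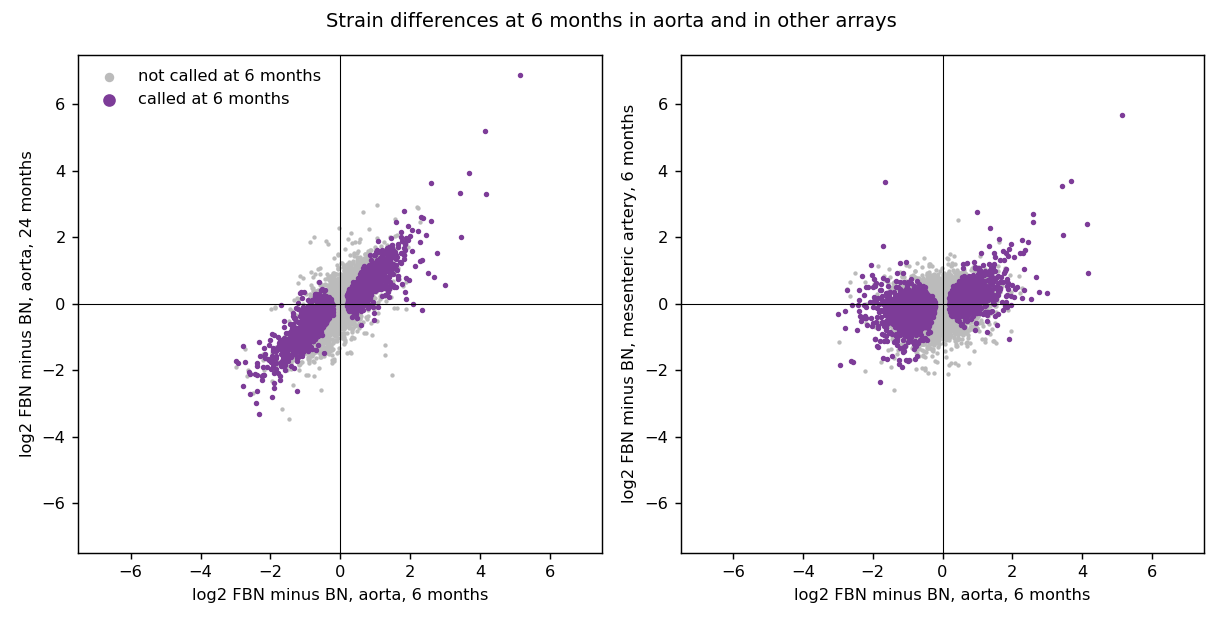
Log2 difference FBN minus BN of each tested probe set in aorta at 6 months (horizontal) against that in aorta at 24 months (left) and in mesenteric artery at 6 months (right); purple points were called at 6 months in aorta. Called points lie along the diagonal more closely on the left (correlation over all 16717 probe sets 0.828) than on the right (0.353), and neither panel shares arrays between its axes.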

How the data were processed

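Total RNA of rat thoracic and mesenteric arteries was measured on Affymetrix arrays, and the 12 thoracic arrays labelled 6 months carry the main comparison. The deposited table holds the authors' processed intensity (signal) values, made with GCOS and MAS5 per the submitters' processing notes (no version is given in the sources read here). Each array has the same trimmed mean, near 1000.3 (2% trimmed), so the values are scaled per array, which removes differences in total RNA. No scanner files were used here, so background correction could not be varied, and the number of arrays limits precision.

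The deposited signals were converted to log2 without further normalization, and control probe sets (57) were left out. Probe sets whose mean log2 signal over the aorta or the mesenteric arrays reached that of a signal of 292.4 were tested (16717 of 31099 in the file, controls included). A linear model of group means was fitted (lmFit, and eBayes with trend and robust estimates, in limma 3.58.1 under R 4.3.3, with statmod 1.5.0) over the 35 aorta arrays. The mesenteric strain difference was fitted over the 36 mesenteric arrays alone, with their own spread, and the vessel contrast over all 71 arrays. Calls were made at a two-sided Benjamini-Hochberg adjusted p of 0.05. Mass and quality measures were compared by exact permutation tests. The code was tested on simulated data. Arrays were numbered in accession order, which names them and pairs nothing.

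Probe sets were named from GEO's platform annotation, which gives 1 symbol for 20826, several for 436 and none for 9780, and only those with 1 symbol were named. Genes named are the 15 called genes that rose most and the 15 that fell most, the 10 steadiest over the 3 ages (smallest of their largest p), up to 5 each way in the age and vessel contrasts, and up to 4 per gene list with the smallest p. Ucp1, Cidea, Acta2, Myh11, Agt, Lep, Pecam1 and Npr1 were chosen after their values were seen. The members, gene lists and tests were all chosen with earlier results of these data known. Alternatives tried were quantile normalization, an offset before log2, no filter and a stricter one, other eBayes settings, array weights, other sets of arrays, covariates, and leaving out each array.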

Additional observations from a re-analysis of the deposited data

Results flagged for a closer look

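Within groups of 6 arrays, an array was singled out when its gap to the nearest of the others, on the log2 scale, took a larger share of the group's range than Dixon's critical value for 6 samples. This was so in 13 of 244 groups checked, and chance flags about 1 in 20 groups. BN array 4 was the lowest of its group for Itga1 (gap 0.707 of the range), Mb (0.704), Fabp3 (0.640), Lss (0.706), Slc2a4 (0.869) and Rora (0.665), and the highest for Rplp0 (0.665). Of the other BN arrays, array 2 was low for Scn7a (0.728) and array 3 for Pecam1 (0.799). FBN array 6 was low for Klhdc7a (0.632) and Pecam1 (0.691), FBN array 3 was high for Isg15 (0.645), and FBN array 1 was high in the skeletal muscle score (0.738).

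The strain difference changed with age, by the test of 6 months against the mean of 15 and 24 months, for Nutf2 (0.73 log2 units), Id4 (-1.50), Cav2 (-1.08) and Krit1 (-0.65).

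Between aorta and mesenteric artery at 6 months the strain difference was more positive in aorta for Tcap (2.95 log2 units), P3h4 (2.77), Serpina3n (2.57), Ltbp2 (2.35) and Chn2 (2.29). It was more negative in aorta for Scd (-5.32), Tmem79 (-3.44), Pnpla3 (-3.13), Iqgap2 (-2.81) and Rap1gap (-2.70).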

How the results depend on the processing

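Against 2783 probe sets called at 6 months, array weights gave 9210, all 71 arrays 5171, only the 12 arrays of 6 months 348, arrays of at least 20 mg 435, FBN arrays under 20 mg alone against all BN 7645, tissue mass as a covariate 1205 and the brown adipocyte score 1261. Of the alternatives chosen after seeing the data, leaving out FBN arrays 1 and 2 gave 8888 and the poly-A signal as a covariate 469. Quantile normalization, an offset, both filter changes and other eBayes settings gave 2027 to 2865. No probe set called at 6 months changed sign in any of these fits. Of 101 named calls at 6 months, 77 were lost with only the 12 arrays, 46 with tissue mass, 53 with the brown adipocyte score, and 48 by leaving out some single array. Of all 2783 calls, 12.5% were kept in the same direction with only the 12 arrays, 38.4% with tissue mass and 32.1% with the brown adipocyte score. With each single array left out in turn, 34.1% were kept throughout.

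Leaving out single arrays gave 1101 to 6009 probe sets at 6 months (the lowest without FBN array 6, the highest without FBN array 2), 1634 to 6845 at 15 months, 945 to 6061 at 24 months and 1024 to 2461 in mesenteric artery. It gave 1 to 9 for the age contrast, 183 to 2462 for the vessel contrast, 0 to 2 passing quality measures, and mass differences of -9.31 to -5.23 mg. The mass difference passed without FBN array 1 or 2. Without the filter, the vessel contrast called 302.

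No paired analysis was possible because the labels carry no replicate numbers. Tissue mass, fat content and spike-in level are not independent of strain here, so a covariate can take up part of a strain difference.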

Other observations

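Of the detoxification genes lower in FBN aorta at 6 months, 3 besides Gsta4 were chosen for description after their values were seen. Fmo1, a flavin monooxygenase, differed by -1.44 ± 0.43, Cyp2e1, a cytochrome P450 of alcohols and ketones, by -1.33 ± 0.42, and Ephx1, microsomal epoxide hydrolase, by -0.68 ± 0.19 (adjusted p in limma's fit = 0.0244, 0.0299 and 0.0184). In the lipid lists, the sterol sensor Insig1 and the sterol dehydrogenase Nsdhl differed by -1.38 ± 0.43 and -0.99 ± 0.35 (adjusted p in limma's fit = 0.0298 and 0.0482), and the fatty acid carriers Fabp3 and Slc25a20 by -1.61 ± 0.54 and -1.52 ± 0.53 (adjusted p in limma's fit = 0.0393 and 0.0466). Fabp3 and Slc25a20 lost their calls with tissue mass, the brown adipocyte score or the poly-A signal, and without most single arrays. Over all settings their adjusted p in limma's fit reached 0.470 and 0.599. The settings were not followed gene by gene for Fmo1, Cyp2e1, Ephx1, Insig1 and Nsdhl.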
